A study of Homo sapiens with 16 samples.

Results

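The kinesin motor genes of 2 pancreatic cancer cell lines were examined across drug treatments. Members were chosen by name alone. They were all gene symbols in the gene level table made of KIF, a number and at most 1 letter from A to C. No measured value was used to pick single members, but the name pattern and the lists were chosen with earlier results of these data known. The pattern matched 40 of the 63677 Ensembl identifiers in that table, which stand for 39 gene symbols, because KIF5C is listed under a second identifier that holds no counts. Of the 39 genes, 14 were grouped as mitotic kinesins, 15 as transport kinesins and 10 as kinesins of the cilium or with other roles.

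RNA sequencing of poly-A RNA covered MiaPaCa2 and PANC1, established human lines derived from pancreatic carcinoma and grown in DMEM with 10% serum. Each line had 4 groups sampled at 24 h: an untreated control, 40 nM gemcitabine, 50 uM genistein, and both drugs together at these doses (co-treatment). Gemcitabine is a deoxycytidine analogue that stalls DNA synthesis, and genistein is an isoflavone of soy with weak estrogenic activity. Each group held 2 biological replicates, 16 libraries in all, and the treatments of a line were all set against the same pair of control libraries. No genetic change separates the groups within a line, and each line was cultured alone, without stromal cells.

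Kinesins are motor proteins that use ATP to move along microtubules, or in some families to take microtubule ends apart. Transport kinesins carry vesicles, mitochondria and RNA granules through the cytoplasm of cells at any stage, whereas mitotic kinesins build the spindle, move chromosomes and complete cytokinesis, and their transcripts usually accumulate as cells pass through G2 and mitosis. In proliferating cells many mitotic kinesin genes are held off outside that window by a complex that reads a short promoter element, the cell cycle genes homology region (CHR), often beside a CCAAT box bound by NF-Y. In bulk RNA, fewer cells in a stage and less transcript per cell cannot be told apart.

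Total gene counts ran from 12943482 to 31991860 per library. The libraries carried the keratins KRT8 (369 to 1076 FPKM, a read density scaled to transcript length and library size) and KRT18 (373 to 742 FPKM). KRT19 (56.5 to 749), SOX9 (6.37 to 27.4) and KRT7 (0.170 to 21.1) varied more. EPCAM was 0 in MiaPaCa2 and 7.71 to 12.8 FPKM in PANC1, and CDH1 at most 0.0214 and 2.7 to 13.2 FPKM. Of the mesenchymal markers VIM was high throughout (1398 to 3875 FPKM). COL1A1 was 0.443 to 1.83 FPKM in MiaPaCa2 and 33.7 to 99.7 in PANC1, and COL1A2 44.4 to 76.3 and at most 0.092. Insulin, glucagon, somatostatin and PECAM1 were listed at 0 and the leukocyte genes PTPRC and CD3E reached 0.0146 and 0.0236 FPKM at most, whereas CD68, a lysosomal glycoprotein on the same marker list, was listed at 14.2 to 37.6 FPKM in MiaPaCa2 and 108.3 to 221 FPKM in PANC1; its part in the results was not tested. Replicates of the PANC1 control stood furthest apart, with a chi-square per degree of freedom of 32 between their counts against 2.70 to 19.7 in the other 7 groups, and they also differed in how counts followed GC content, by 0.30 and -0.07 log2 units per 10 points of GC. Counts of calls against the PANC1 control are therefore also given without each of these libraries.

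RefSeq promoter windows (GRCh38.p14, 250 bases before to 50 after the start) were found for 33 of the 39 kinesins, and these were searched on both strands for the CHR core TTTGAA and the CCAAT box. The CHR core was present in 9 of 14 mitotic, 1 of 12 transport and 0 of 7 other kinesins, against 18.2% of all 27305 genes with a window. The CCAAT box was present in 10, 4 and 3 of them, against 39.7% of all genes, and both motifs together in 8, 1 and 0, against 7.26%. The transport kinesin with both was KIF5B. A match describes letters in this window and not a site in use. Only the exact letters TTTGAA were searched, and other spellings of the CHR were not.

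The stretches from 100 bases before to 10 bases after the start are shown for the mitotic kinesins that differ most in these letters, and for KIF24 because it is described below; capitals mark CHR cores and CCAAT boxes on either strand (TTCAAA and ATTGG are their reverse complements).
KIF11: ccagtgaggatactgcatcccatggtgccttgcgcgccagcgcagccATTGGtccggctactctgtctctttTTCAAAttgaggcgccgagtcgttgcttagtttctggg
KIF18A: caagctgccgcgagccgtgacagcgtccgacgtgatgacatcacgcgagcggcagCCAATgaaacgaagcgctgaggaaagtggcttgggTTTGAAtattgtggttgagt
KIF23: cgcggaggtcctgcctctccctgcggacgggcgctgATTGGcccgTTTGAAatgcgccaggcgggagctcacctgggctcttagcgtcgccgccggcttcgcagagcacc
KIF20A: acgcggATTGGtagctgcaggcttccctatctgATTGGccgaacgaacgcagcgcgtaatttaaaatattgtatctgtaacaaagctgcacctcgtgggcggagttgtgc
KIF2C: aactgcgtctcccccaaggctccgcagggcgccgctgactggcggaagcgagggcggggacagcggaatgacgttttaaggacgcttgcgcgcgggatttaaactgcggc
KIF24: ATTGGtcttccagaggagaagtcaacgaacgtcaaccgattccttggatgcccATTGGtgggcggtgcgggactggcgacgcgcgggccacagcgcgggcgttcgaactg
The windows lie at chr10:92593030-92593139 on the plus strand (KIF11, the spindle motor of bipolar spindles), chr11:28108147-28108256 on the minus strand (KIF18A, which shortens kinetochore microtubules), chr15:69414249-69414358 on the plus strand (KIF23, the motor of centralspindlin), chr5:138179012-138179121 on the plus strand (KIF20A, a cytokinesis motor of the central spindle), chr1:44739737-44739846 on the plus strand (KIF2C, a depolymerase at centromeres) and chr9:34329259-34329368 on the minus strand (KIF24, a depolymerase of the mother centriole). KIF11 carried the CHR core and the CCAAT box with first bases 25 bases apart, KIF18A 35 apart and KIF23 9 apart. KIF20A and KIF24 had CCAAT boxes without an exact TTTGAA in the whole window, and KIF2C had neither. This does not show that they lack a CHR, since other spellings were not searched.

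KIF4A and KIF4B are near copies in their transcripts, and their counts are uncertain for that reason. KIF4A is a chromosome-arm kinesin and KIF4B is its intronless copy on chromosome 5, and reads with more than 1 alignment were removed before counting.
KIF4A: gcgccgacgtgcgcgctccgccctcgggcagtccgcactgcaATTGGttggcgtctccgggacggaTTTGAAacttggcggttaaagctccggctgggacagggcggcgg
KIF4B: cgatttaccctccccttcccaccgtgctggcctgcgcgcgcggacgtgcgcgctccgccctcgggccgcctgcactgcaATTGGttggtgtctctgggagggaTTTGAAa
These windows lie at chrX:70290004-70290113 and chr5:155013655-155013764, both on the plus strand. After a shift of 37 bases, 163 of the 263 bases shared by the whole promoter windows were identical (62%), and 52 of the 53 that could be aligned from 40 bases before the KIF4A start onward (98.1%). KIF4A was listed at 31.96 to 43.0 FPKM and KIF4B at 5.38 to 8.17 FPKM across the 16 libraries, and neither was called with gemcitabine in either line.

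Kinesin levels spanned a wide range, and the order of the highest genes differed between the lines. Levels between genes are given in FPKM, which is scaled to transcript length. KIF22, a chromosome-arm motor, had the highest mean over the 16 libraries (127 FPKM), followed by KIF1C, a vesicle carrier (115.9 FPKM), KIF2C (102.4 FPKM) and KIF20A (85.7 FPKM). In the MiaPaCa2 controls the order was KIF22 (141.6 ± 9.24 FPKM, SD, n = 2), KIF20A (134.9 ± 8.76), KIF1C (132.3 ± 4.61) and KIF2C (86.2 ± 1.61), and the libraries of KIF22, KIF20A and KIF1C overlapped. With genistein KIF20A stood first in that line, at 154.3 ± 3.47 FPKM against 139.2 ± 5.77 for KIF22. In the PANC1 controls KIF22 (134.9 ± 28.4) and KIF1C (114.2 and 95.7 FPKM) were followed by KIF1A (85.4 ± 13.7), KIF2C (72.6 ± 5.39) and KIF20A (57.9 ± 0.699), and KIF1A and KIF2C overlapped. Among transport kinesins KIF1A, a carrier of synaptic and dense-core vesicles in neurons, followed KIF1C at 47.5 FPKM over all libraries. The ciliary and other kinesins were low, with summed levels of 11.8 to 35.1 FPKM per library.

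The summed level of the 14 mitotic kinesins was 552 and 529 FPKM in the MiaPaCa2 controls, 493 and 498 with gemcitabine, 556 and 566 with genistein and 484 and 455 with co-treatment. In PANC1 the mitotic sums were 425 and 430 FPKM in the controls, 438 and 439 with gemcitabine, 463 and 446 with genistein and 423 and 389 with co-treatment. In MiaPaCa2 both gemcitabine libraries lay below both control libraries, while in PANC1 the control and gemcitabine sums were nearly level. Transport sums ran from 245 to 294 FPKM in MiaPaCa2 and from 304 to 341 FPKM in PANC1, so every PANC1 library lay above every MiaPaCa2 library. Much of this gap came from 1 gene, KIF1A, at 15.8 to 34.7 FPKM in MiaPaCa2 and 54.3 to 95.1 FPKM in PANC1. The sums therefore do not show a higher level of the transport class as a whole.

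The members KIF2B, KIF19, KIF6, KIF26B, KIF25, KIF5C and KIF21B never passed 1 FPKM in any library. KIF2B, a mitotic depolymerase, had no counts at all, KIF19, KIF6 and KIF26B were at or close to 0, and KIF25, KIF5C and KIF21B stayed below 1 FPKM. After the filter on low counts 33 kinesins were tested in MiaPaCa2 (13 mitotic, 14 transport, 6 other) and 35 in PANC1 and in the comparison of lines (13, 15 and 7).

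**Figure D1:**
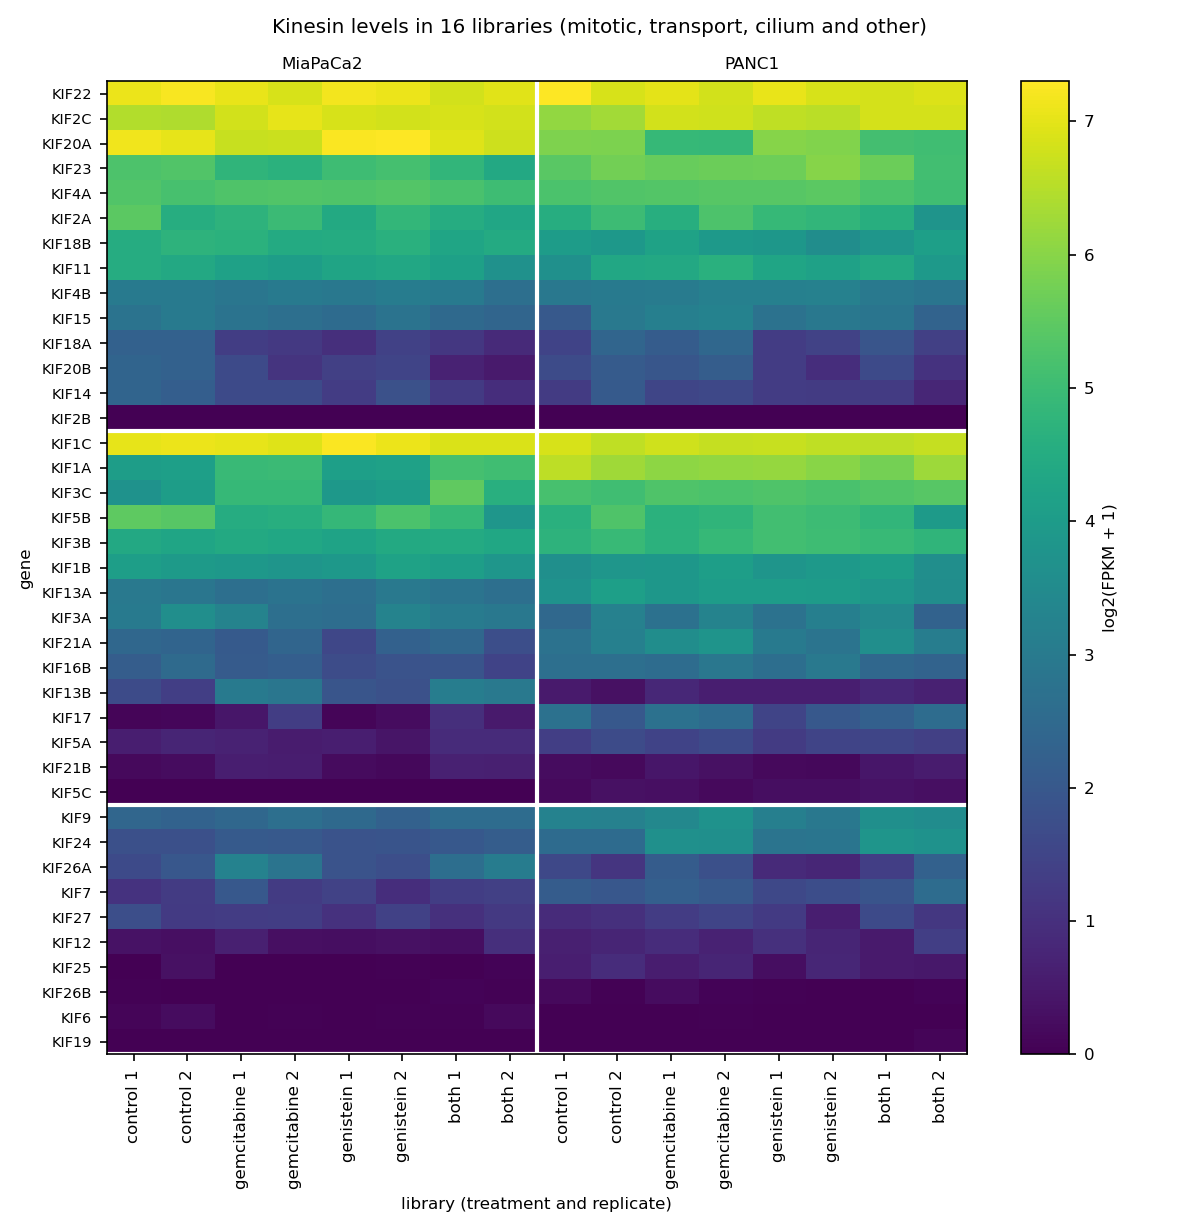
Heat map of log2(FPKM + 1) for the 39 kinesins (vertical axis, in classes separated by white lines) in the 16 libraries (horizontal axis, MiaPaCa2 left and PANC1 right). KIF22, KIF1C and KIF2C are bright in every library, KIF20A is brighter in MiaPaCa2 than in PANC1, and KIF1A is the reverse.

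Between the untreated lines the called transport kinesins were mostly higher in PANC1 and the called mitotic ones were all lower. By limma-voom with Benjamini-Hochberg adjustment, 10 kinesins were higher in PANC1 (27.9% of all 17863 genes tested were) and 7 were lower (24.3% of all genes). A gene was called where its adjusted p was at most 0.05, its log2 fold change at least 0.4 in size, and its mean level above 1 FPKM (in either line here, in the treated group elsewhere). Of the 15 transport kinesins tested 7 were higher in PANC1 and 1 lower, and of the 13 mitotic ones 0 were higher and 5 lower. In either direction 8 of 15 and 5 of 13 were called, near and below the 52.3% of all genes. The median log2 fold change was 0.48 for transport and -0.41 for mitotic kinesins.

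KIF1A was listed at 15.8 and 16.4 FPKM in the MiaPaCa2 controls and at 95.1 and 75.7 FPKM in the PANC1 controls, a log2 fold change of 2.46 ± 0.18 (SE, adjusted p = 7.37e-08). KIF5A, a conventional kinesin best known from neurons, was higher by 1.42 ± 0.19 on the log2 scale, KIF3C of the heterotrimeric kinesin-2 family by 1.16 ± 0.13, KIF13A, an endosome carrier, by 1.14 ± 0.13 and KIF24 by 0.98 ± 0.11. KIF17, a kinesin-2 motor of cilia and dendrites, had 5 reads in the MiaPaCa2 controls together and 306 in the PANC1 controls, a ratio of 34.4 per read counted with a 95% exact interval of 14.6 to 106.7 that covers counting error only. KIF5C had no read in the MiaPaCa2 controls and 50 in the PANC1 controls, which put it at least 4.58-fold higher in PANC1 against a floor of 3 counts per library, but it stayed below 1 FPKM.

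KIF13B, a carrier of membrane cargo, went the other way, with 2.19 and 1.56 FPKM in the MiaPaCa2 controls and 0.439 and 0.243 FPKM in those of PANC1 (log2 fold change -2.77 ± 0.13, adjusted p = 1.49e-09). KIF20A stood at 141 and 129 FPKM in MiaPaCa2 and 58.4 and 57.4 FPKM in PANC1 (log2 fold change -1.26 ± 0.08, adjusted p = 1.02e-08). KIF27, a relative of the hedgehog regulator KIF7, had a log2 fold change of -1.29, KIF14, a cytokinesis motor, a value of -0.82, and KIF18B, which acts on astral microtubules, a value of -0.79. The pairs of controls did not overlap for these genes. With the GC content of each library corrected, 10280 of 17863 genes were called, and the median over all genes was -0.23. After correction of each library for GC content the split was 9 higher and 16 lower, the rises of KIF3B and KIF7 lost their call, and leaving out 1 control library gave 15 to 22 calls, 18 without PANC1 control replicate 1 and 22 without replicate 2.

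**Figure D2:**
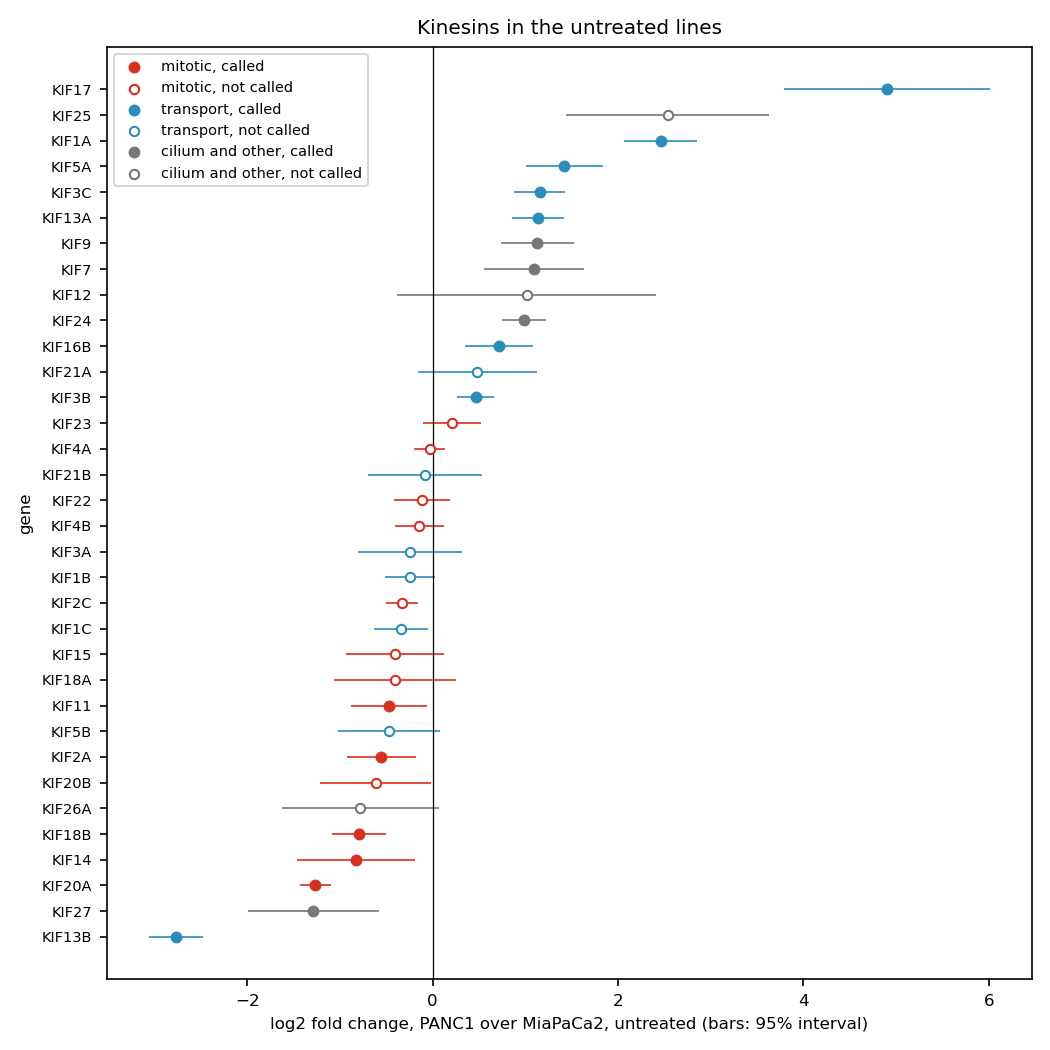
Log2 fold change of PANC1 over MiaPaCa2 in the untreated groups (horizontal axis) for 34 tested kinesins (vertical axis), with 95% intervals from limma-voom; filled points were called and KIF5C, without reads in the MiaPaCa2 controls, is left out. Called transport genes (blue) lie to the right except KIF13B, and called mitotic genes (red) lie to the left.

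In MiaPaCa2, gemcitabine lowered most mitotic kinesins and split the transport class. Of the 33 kinesins tested 11 fell (14.6% of all 16064 genes tested fell) and 4 rose (15% of all genes rose). Of the mitotic class 8 of 13 fell and 0 rose, with a median log2 fold change of -0.53 against -0.01 over all genes. Of the transport class 3 of 14 fell and 3 rose (median -0.13).

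KIF20B, a motor of cytokinetic abscission, was listed at 4.15 and 3.78 FPKM in the controls and 2.14 and 1.13 FPKM with gemcitabine, and fell by 1.64 on the log2 scale (SE 0.17, adjusted p = 2.27e-05). KIF18A went from 3.78 and 3.79 FPKM to 1.51 and 1.34 FPKM (log2 fold change -1.49 ± 0.22, adjusted p = 0.00028). KIF14 went from 4.11 and 3.51 FPKM to 2.1 and 2.13 FPKM (log2 fold change -0.96 ± 0.20, adjusted p = 0.00229). The treated libraries lay below both controls for each of these genes.

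KIF23 fell from 37.4 and 39.0 FPKM to 26.3 and 24.6 FPKM (log2 fold change -0.82 ± 0.11, adjusted p = 0.000171). KIF20A fell from 141 and 129 FPKM to 101.2 and 103.7 FPKM (log2 fold change -0.57 ± 0.08, adjusted p = 0.000157). KIF11 fell from 21.99 and 20.1 FPKM to 17.0 and 15.7 FPKM (log2 fold change -0.49 ± 0.12, adjusted p = 0.00657). No treated library reached a control level in these genes either. KIF15, a helper of KIF11 on the spindle, fell by 0.53 on the log2 scale, and KIF2A, a depolymerase of spindle poles, by 0.64, although the FPKM of KIF2A overlapped (43.3 and 22.4 in the controls, 25.6 and 30.3 with gemcitabine), and 18.7% of the exon bases of KIF2A overlap a gene on the other strand.

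KIF2C was the mitotic exception, at 87.4 and 85.1 FPKM in the controls and 109.6 and 130 FPKM with gemcitabine. Its log2 fold change of 0.25 ± 0.08 had an adjusted p of 0.024 but missed the fold criterion, so it was not called. KIF22 (log2 fold change -0.23), KIF18B (-0.26), KIF4A (-0.10) and KIF4B (-0.23) were not called.

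Among transport kinesins KIF13B was the gene with the largest called rise, from 2.19 and 1.56 FPKM to 6.92 and 6.28 FPKM (log2 fold change 1.60 ± 0.11, adjusted p = 1.95e-06). KIF1A rose from 15.8 and 16.4 FPKM to 30.0 and 30.2 FPKM (0.84 ± 0.10 on the log2 scale, adjusted p = 7.14e-05), and KIF3C from 12.1 and 15.7 FPKM to 28.6 and 28.9 FPKM (0.81 ± 0.09, adjusted p = 4.1e-05). KIF26A, an atypical kinesin that does not hydrolyse ATP, rose from 2.12 and 2.98 FPKM to 8.40 and 6.05 FPKM (1.40 ± 0.21, adjusted p = 0.000296). All treated libraries lay above the controls for these members.

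KIF5B, the ubiquitous conventional kinesin that moves mitochondria and lysosomes, went the opposite way, from 43.7 and 41.0 FPKM to 22.2 and 22.8 FPKM (log2 fold change -0.87 ± 0.18, adjusted p = 0.0023). KIF16B, an early endosome motor, and KIF13A also fell, by 0.56 and 0.40 on the log2 scale. The call of KIF13A was lost under 11 of 16 alternatives and its value sits at the fold criterion. Calls were also lost for KIF11 in 7, KIF16B in 6, KIF15 in 5 and KIF2A in 4 of 16 alternatives. KIF1B and KIF3A, carriers of vesicles and of ciliary cargo, had log2 fold changes of -0.16 and -0.25 and were not called. KIF17 and KIF21B passed the adjusted p but had mean levels below 1 FPKM with gemcitabine. KIF17 was listed at 0.370 and 1.48 FPKM there, with 33 reads against 5 in the controls, a ratio of 6.23 per read counted with an exact 95% interval of 2.42 to 20.4.

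**Figure D3:**
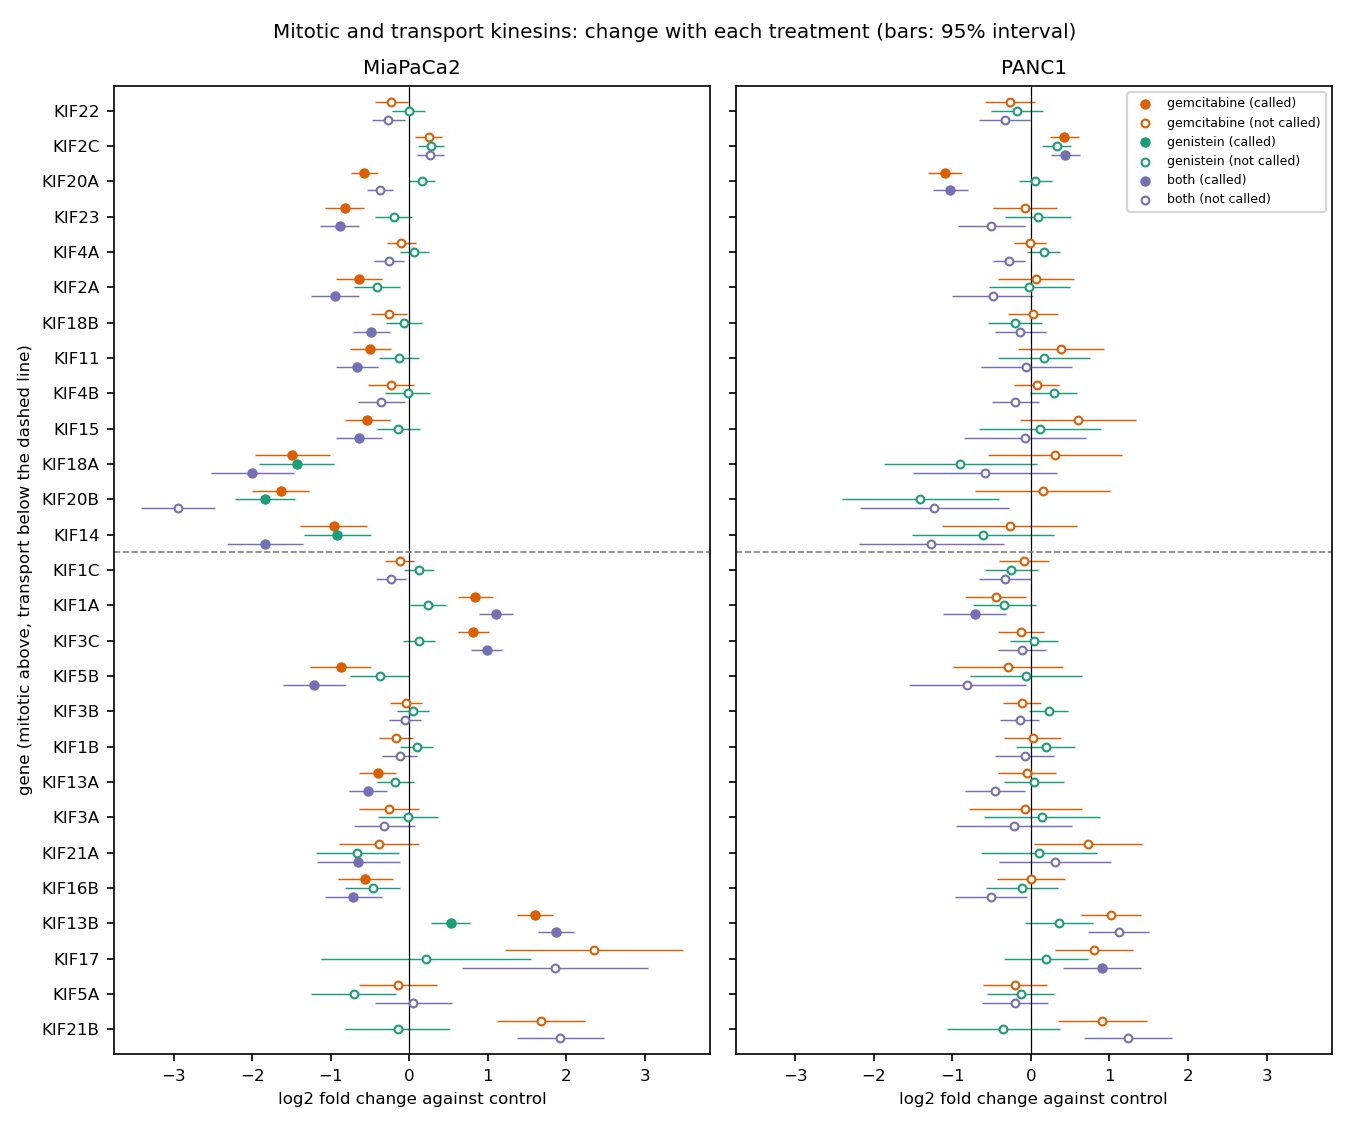
Log2 fold change against control (horizontal axis) of the tested mitotic and transport kinesins (vertical axis, separated by the dashed line) with gemcitabine, genistein and both drugs in MiaPaCa2 (left) and PANC1 (right), with 95% intervals from limma-voom; filled points were called. Mitotic points in MiaPaCa2 lie mostly left of 0 and KIF13B, KIF1A and KIF3C lie right, while in PANC1 most intervals cross 0 and KIF20A stands apart.

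With genistein alone, 3 of the 33 kinesins tested in MiaPaCa2 fell (4.13% of all genes fell) and 1 rose (4.18% of all genes rose). KIF20B fell to 1.59 and 1.83 FPKM (log2 fold change -1.84 ± 0.18, adjusted p = 0.000442), KIF18A to 0.982 and 1.67 FPKM (-1.44 ± 0.22, adjusted p = 0.00283) and KIF14 to 1.48 and 2.51 FPKM (-0.91 ± 0.20, adjusted p = 0.0136). These 3 mitotic genes also fell with gemcitabine, which was set against the same controls. KIF13B rose to 2.81 and 2.52 FPKM (0.53 ± 0.11, adjusted p = 0.0136). KIF2C was at 114.3 and 109.9 FPKM (0.28 ± 0.08, adjusted p = 0.0389), again under the fold criterion. KIF20A was not called, at 152 and 157 FPKM, with a log2 fold change of 0.16. The calls of KIF14 and KIF13B were each lost in 5 of 16 alternatives.

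Co-treatment of MiaPaCa2 gave falls in 11 kinesins (20.2% of all genes fell) and rises in 4 (20.3% of all genes rose). Of 13 mitotic kinesins 7 were called lower and 12 had a value below 0, with a median log2 fold change of -0.64, and of 14 transport kinesins 4 fell and 3 rose (median -0.09). KIF18A fell by 1.996 on the log2 scale (adjusted p = 2.97e-05), KIF14 by 1.84 (adjusted p = 2.69e-05) and KIF5B by 1.21 (adjusted p = 0.000161). KIF20B had the lowest value, -2.94 ± 0.22 (adjusted p = 6.05e-07), at 0.624 and 0.449 FPKM, and was not counted because it lay below 1 FPKM. KIF13B rose by 1.87, KIF26A by 1.24, KIF1A by 1.10 and KIF3C by 0.99, the last with unequal replicates of 44.5 and 23.1 FPKM. KIF20A lay at 122 and 105.6 FPKM, with a log2 fold change of -0.38 ± 0.08 and an adjusted p of 0.00139, just under the fold criterion. KIF21A, a motor that holds microtubule growth at the cortex, was called lower but lost its call in 12 of 16 alternatives.

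Against gemcitabine alone, co-treatment lowered 1 kinesin in MiaPaCa2 and raised 0 (1.83% of all genes fell and 4.05% rose). This was KIF14, from 2.1 and 2.13 FPKM to 1.38 and 0.952 FPKM (log2 fold change -0.87 ± 0.23, adjusted p = 0.0413), a call that 8 of 16 alternatives lost. The unadjusted p was below 0.05 for 5 kinesins, and edgeR and DESeq2 each called 1 kinesin. Against genistein alone 8 kinesins fell (14.9% of all genes) and 4 rose (16.6%). The gemcitabine by genistein interaction was called for 0 kinesins in limma-voom (0.0249% of all genes), with 3 at an unadjusted p below 0.05 and 0 in edgeR or DESeq2.

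In PANC1 gemcitabine lowered 1 kinesin (3.03% of all 16909 genes tested fell) and raised 2 (4.49% of all genes rose), of 35 tested. The mitotic median was 0.06 and the transport median -0.07 on the log2 scale. The mitotic kinesins that fell in MiaPaCa2, other than KIF20A, were all lower in PANC1 control replicate 1 than in replicate 2, such as KIF11 at 11.7 and 19.9 FPKM and KIF18A at 1.79 and 4.26 FPKM. The count of called kinesins was 3 without PANC1 control replicate 1 and 7 without replicate 2, and 2 without either gemcitabine library. The GC correction gave 4 rises and 2 falls, while 3123 of all 16909 genes were called.

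KIF20A fell from 58.4 and 57.4 FPKM to 28.8 and 28.2 FPKM (log2 fold change -1.09 ± 0.09, adjusted p = 0.00157). In the main fit it was the only kinesin called in the same direction in both lines with gemcitabine. After the GC correction KIF26A was called higher and KIF5B lower in both lines as well. The call of KIF20A held in PANC1 under all 16 alternatives. KIF24 rose from 4.88 and 4.87 FPKM to 11.7 and 11.48 FPKM (1.11 ± 0.10, adjusted p = 0.00208), again under all 16. KIF2C rose from 68.8 and 76.5 FPKM to 110.6 and 108.3 FPKM (0.43 ± 0.08, adjusted p = 0.0193), a value near the fold criterion that 10 of 16 alternatives put outside the call. For KIF20A, KIF24 and KIF2C the treated and control pairs did not overlap, and the replicates of KIF20A and KIF24 lay close together. In GRCh37 the KIF20A gene spans chr5:137514408-137523412 on the plus strand and KIF24 chr9:34252378-34329266 on the minus strand.

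KIF13B in PANC1 was listed at 0.439 and 0.243 FPKM in the controls and 0.763 and 0.544 FPKM with gemcitabine. Its log2 fold change of 1.02 ± 0.17 had an adjusted p of 0.0127, but it was below 1 FPKM and not counted.

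With genistein alone 0 kinesins were called in PANC1 by limma-voom, where 0.0591% of all genes were called. The unadjusted p was below 0.05 for 3 kinesins, edgeR called 0 and DESeq2 called 1. The count was 0 without either control library, and the GC correction gave 1 rise and 2 falls. Over all genes that correction called 1224 of 16909. KIF18A was at 1.45 and 1.72 FPKM and KIF20B at 1.48 and 0.952 FPKM, below both of their controls. Neither passed the test in the main fit, but the GC correction called both of them, along with KIF17.

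Co-treatment of PANC1 raised 3 kinesins (10.2% of all genes rose) and lowered 2 (6.9% of all genes fell). KIF20A fell to 33.5 and 32.6 FPKM (log2 fold change -1.03 ± 0.10, adjusted p = 0.000909) and KIF1A to 54.3 and 74.4 FPKM (-0.71 ± 0.17, adjusted p = 0.0254). KIF24 rose to 12.87 and 12.1 FPKM (1.18 ± 0.10, adjusted p = 0.000753), KIF2C to 113.1 and 112.5 FPKM (0.44 ± 0.08, adjusted p = 0.00875) and KIF17 by 0.90 ± 0.21 (adjusted p = 0.0242), with FPKM of 3.72 and 4.95 that overlapped those of the controls, 5.57 and 3.03. Of 13 mitotic kinesins 12 had a value below 0 (median -0.33), although the test called 1 of them lower. The number of calls rested on the GC correction, on the controls and on the libraries fitted. It moved less with the scaling, with 4 rises and 2 falls under library size alone. The GC correction gave 13 falls and 3 rises, leaving out PANC1 control replicate 1 gave 12 calls in all and replicate 2 gave 5, and a fit of the 4 libraries compared gave 2. The calls of KIF1A, KIF17 and KIF2C were each lost in 4 of 17 alternatives, the GC correction among those for KIF2C (0.31). After that correction 16 kinesins were called with co-treatment in each line. Of all genes it called 5123 of 16909 in PANC1 and 6514 of 16064 in MiaPaCa2.

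Against gemcitabine alone, co-treatment of PANC1 called 0 kinesins in limma-voom (0.0177% of all genes), with 7 at an unadjusted p below 0.05, 0 in edgeR and DESeq2, and 3 falls after the GC correction. Against genistein alone 2 fell, KIF20A and KIF4A (4.31% of all genes fell), and 1 rose, KIF24 (3.87% of all genes rose). With library size alone as the scaling that split was 1 fall and 2 rises, and after the GC correction 9 falls and 3 rises. The GC correction called 1239 of 16909 genes against gemcitabine alone and 3836 against genistein alone. The interaction was called for 0 kinesins by limma-voom (0% of all genes), edgeR and DESeq2, with 3 at an unadjusted p below 0.05 and 0 without either control library.

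**Figure D4:**
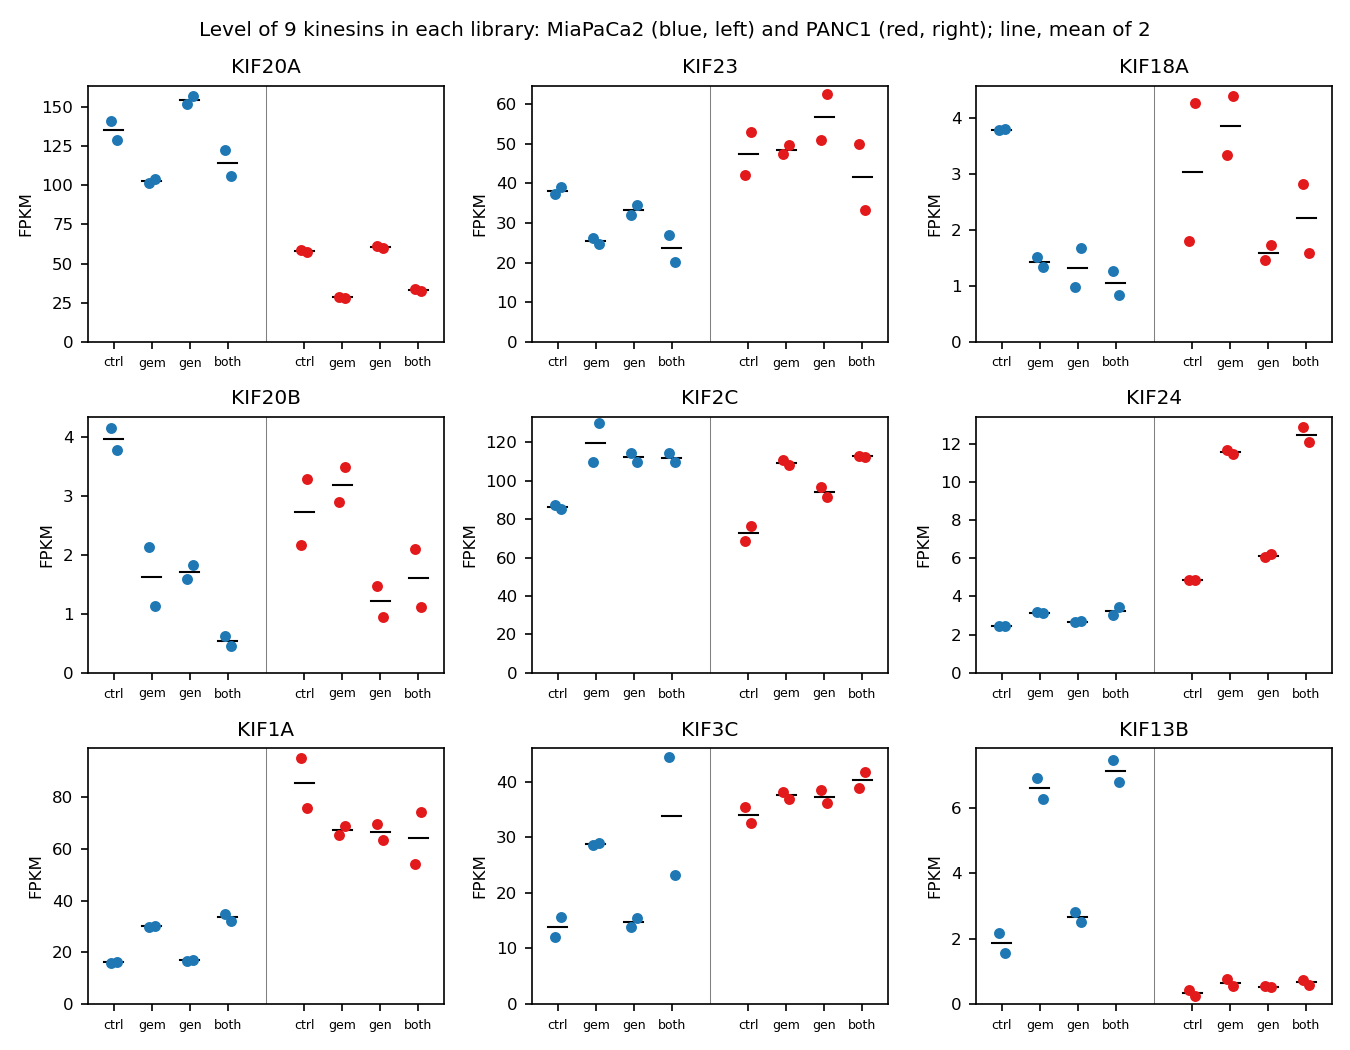
FPKM of 9 kinesins (1 panel each, vertical axis from 0) in every library of MiaPaCa2 (blue) and PANC1 (red) under control, gemcitabine, genistein and both drugs; short lines are means of 2 replicates. KIF20A drops with gemcitabine in both lines, KIF24 rises in PANC1 to 11.48 FPKM or above with gemcitabine alone or combined, and KIF13B, KIF1A and KIF3C rise in MiaPaCa2.

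Whether a response differed between the lines was tested as such, on all 16 libraries. With gemcitabine 3 kinesins had a higher and 4 a lower response in PANC1 than in MiaPaCa2 (6.21% and 9.06% of all genes), and with co-treatment 2 and 4 (7.38% and 10.7% of all genes). With genistein 0 differed by limma-voom (0.0336% of all genes), with 2 at an unadjusted p below 0.05 and 0 in edgeR and DESeq2. KIF20A fell further in PANC1, and KIF24 rose in PANC1 and had a log2 fold change of 0.28 in MiaPaCa2, which was not called. KIF18A and KIF20B fell with gemcitabine in MiaPaCa2, while in PANC1 their log2 fold changes were 0.30 and 0.15 and not called. The transport kinesins KIF1A, KIF3C and KIF13B had lower responses in PANC1, with log2 fold changes of -0.45, -0.12 and 1.02 there against 0.84, 0.81 and 1.60 in MiaPaCa2. The GC correction called 4668 and 5370 of 17863 genes with gemcitabine and co-treatment. Its splits for the kinesins were 8 higher and 4 lower with gemcitabine and 5 and 4 with co-treatment. Without PANC1 control replicate 1 the counts were 6 and 5 in all, and without replicate 2 they were 16 and 10.

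The kinesins that moved in MiaPaCa2 also differed in base composition. The 11 that fell with gemcitabine had exon GC contents of 34.3% to 48.4% and the 4 that rose 52.5% to 68.6%. Across the 33 tested kinesins Spearman's rho between GC content and log2 fold change was 0.84 in that comparison, and across 15757 genes of the same libraries it was 0.43, a description over genes that share libraries. The MiaPaCa2 controls had slopes of -0.24 and -0.15 log2 units per 10 points of GC, and the gemcitabine libraries 0.15 and 0.06. After each library was corrected for its trend with GC content, rho over the kinesins was 0.54, and 9 fell and 4 rose. Over all genes that correction called 4588 of 16064. KIF20B then fell by 1.14, KIF18A by 1.09 and KIF23 by 0.59, and KIF13B rose by 1.42, KIF26A by 0.73, KIF3C by 0.57 and KIF1A by 0.46 on the log2 scale. KIF2A, KIF11, KIF15 and KIF13A dropped under the fold criterion there, and KIF18B and KIF22 passed it with a fall. KIF20A and KIF24, with GC contents of 48.4% and 50.2%, kept nearly the same values in PANC1 (-1.15 and 1.07).

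**Figure D5:**
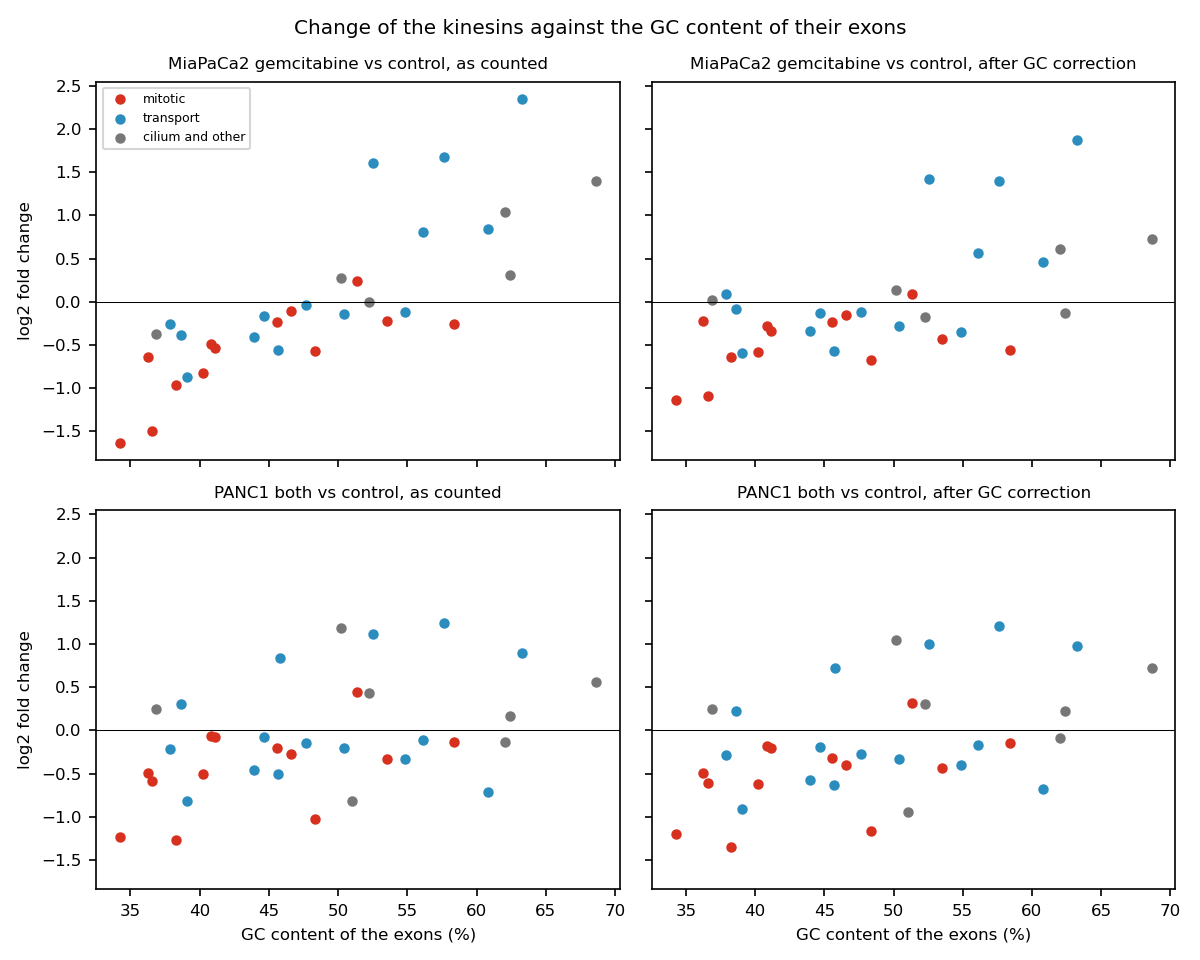
Log2 fold change of each tested kinesin (vertical axis) against the GC content of its exons in percent (horizontal axis) for gemcitabine in MiaPaCa2 (top) and co-treatment in PANC1 (bottom), as counted (left) and after GC correction (right). The slope across the kinesins in MiaPaCa2 is shallower on the right, with rho at 0.84 before and 0.54 after, and mitotic genes (red) stay mostly below 0.

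Kinesins outside the name pattern and the partners of the motors were described from separate lists, by counts. CENPE, the kinesin of kinetochores, fell by 2.29 on the log2 scale with gemcitabine in MiaPaCa2 (adjusted p = 2.79e-05), and in PANC1 its value was -0.42 and not called (adjusted p = 0.554). With genistein alone CENPE was at 1.015 and 0.531 FPKM in MiaPaCa2 (controls 3.07 and 6.45). In PANC1 it was at 0.729 and 1.23 FPKM (controls 3.87 and 3.76). These log2 fold changes of -2.28 and -1.90 were not called. The mean level was below 1 FPKM in both genistein groups, which bars a call at any p-value. With co-treatment its values were -3.36 in MiaPaCa2 and -1.65 in PANC1. The fall in PANC1 was called, while in MiaPaCa2 the level of 0.63 and 0.317 FPKM again barred a call. KIFC1, a minus-end motor that clusters centrosomes, was not called, with values of -0.15 and -0.07. KIFC2 rose by 0.80 in MiaPaCa2.

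Of 16 mitotic partners of kinesins, such as kinases, scaffolds and spindle proteins, 8 fell and 0 rose with gemcitabine in MiaPaCa2 (median log2 fold change -0.42), and 4 fell and 0 rose in PANC1 (median -0.13). Of all genes 14.6% and 3.03% fell, with medians of -0.01 and 0.03. With co-treatment 11 and 6 of the partners fell, against 20.2% and 6.9% of all genes. HMMR, a spindle protein, had the largest fall in MiaPaCa2 with gemcitabine (-0.97), and PLK1, the mitotic kinase that docks on KIF20A, the largest in PANC1 (-1.22). AURKA, PLK1, CDCA8 and CCNB1 fell in both lines with gemcitabine, as did KIF20A.

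Among regulators of G2 and M phase transcription 4 of 14 fell in MiaPaCa2 with gemcitabine, the largest fall being RBL1 (-0.84), and in PANC1 2 rose, LIN54 (1.22) and MYBL2 (0.78). Among cargo adaptors and light chains 4 of 15 tested rose and 1 fell in MiaPaCa2, with MAPK8IP2 (1.59) and the mitochondrial adaptor RHOT1 (-0.80) at the ends. In PANC1 1 of 16 rose, FEZ1 (1.08), which rose in MiaPaCa2 as well (1.11). Of the dynein and dynactin subunits, which move cargo the other way along microtubules, 2 of 17 fell in MiaPaCa2, DCTN6 furthest (-0.83), and 0 of 18 were called in PANC1. Against the 14.6% of all genes that fell and the 15% that rose in MiaPaCa2, and the 4.49% that rose in PANC1, the count of dynein subunits that fell was no higher than the background.

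KIF23 was listed as several transcripts, of which KIF23-201 (23 exons, 960 codons) and KIF23-202 (22 exons, 856 codons) were followed after their values had been seen. The share of KIF23-201 in the sum of both had a median of 45.1% in the 8 MiaPaCa2 libraries (lowest 2.54%, highest 63.0%) and 11.6% in the 8 PANC1 libraries (0.011% to 23.1%), and these ranges overlapped. In MiaPaCa2 the lowest share came from a gemcitabine library, while its replicate stood at 41.4%. These shares are estimates from short single reads, and their depth per transcript is unknown.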

How the data were processed

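Poly-A RNA of 16 libraries was sequenced as single reads. The authors mapped reads to GRCh37 with TopHat2 2.0.4, removed multiply aligned reads with Picard 1.29 and counted reads per gene with HTSeq 0.6.1; what they deposited are raw whole counts. The deposited FPKM values per gene and per isoform were made by the authors with Cufflinks 2.1.1. The library kit was stranded, and the strand setting of the counting is not given in the sources used here. Columns were matched to samples by label.

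Counts were filtered with filterByExpr, normalized by TMM (edgeR 4.0.16) and entered into limma-voom (version 3.58.1 in R 4.3.3), with Benjamini-Hochberg adjustment over all genes tested, on the 8 libraries of a line, or on all 16 between lines. Thresholds were adjusted p of at most 0.05, log2 fold change of at least 0.4 in size and an average FPKM above 1 among treated libraries (for untreated lines, in at least 1 line). Interactions and response differences were judged by adjusted p alone. The tests were tried on simulated data. Alternatives included edgeR quasi-likelihood, DESeq2 1.42.0, other scalings, GC correction (loess, span 0.3), log2(FPKM + 1) and leaving out libraries. Locations and GC content used GRCh37 annotation.

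Members followed the name pattern alone, but the pattern and the lists were chosen with earlier results of these data known. Named were members called in both lines, the 3 largest called rises and falls per treatment, the 5 largest called differences between untreated lines in each direction, the highest and the undetected members, fixed examples of each class, and in other lists CENPE, KIFC1 and the called extremes. KIF24, KIF17, KIF21B, KIF21A, KIFC2, PLK1 and AURKA, where outside that rule, were named after their values were seen. P-values rest on the spread between 2 replicates per group, pooled over all groups of a fit and moderated across genes. Counting intervals cover counting error only. Statements that pairs of libraries did not overlap mostly describe genes already named as called. They add no support of their own, and the share of all genes without overlap was not counted.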

Additional observations from a re-analysis of the deposited data

Results flagged for a closer look

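Responses of single kinesins that differed between PANC1 and MiaPaCa2 in a test of the difference itself (limma-voom interaction on all 16 libraries, Benjamini-Hochberg adjusted) are given as the log2 response in PANC1 minus that in MiaPaCa2. For gemcitabine the differences were 1.68 for KIF20B (adjusted p = 0.0208), 1.68 for KIF18A (adjusted p = 0.0312), 0.73 for KIF24 (adjusted p = 0.00727), -1.39 for KIF1A (adjusted p = 0.0042), -1.03 for KIF3C (adjusted p = 0.00301), -0.67 for KIF13B (adjusted p = 0.0244) and -0.62 for KIF20A (adjusted p = 0.00438). For co-treatment they were 1.62 for KIF20B (adjusted p = 0.0444), 0.79 for KIF24 (adjusted p = 0.00338), -1.90 for KIF1A (adjusted p = 0.000333), -1.19 for KIF3C (adjusted p = 0.000716), -0.83 for KIF13B (adjusted p = 0.00705) and -0.73 for KIF20A (adjusted p = 0.00093).

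The differences of KIF1A, KIF20A and KIF24 kept their call under all 19 alternatives run for each, and those of KIF3C under 18. The gemcitabine differences of KIF18A, KIF20B and KIF13B lost it under 7, 6 and 8 alternatives, and the co-treatment difference of KIF20B under 10. KIF1A was the member with opposite called directions, higher in MiaPaCa2 and lower in PANC1 with co-treatment. KIF13B lay below 1 FPKM in every PANC1 library. After the GC correction the KIF18A difference was 1.12, that of KIF20B 1.03 and that of KIF1A -0.84 with gemcitabine.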

How the results depend on the processing

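Of 73 pairs of a called kinesin and a comparison, 33 kept their call under every alternative run for them, 40 lost it under at least 1, and 0 changed direction. Counts of called kinesins that moved by more than 1.5 times are given here, and the cause was not tested. Calls over all genes moved with the setting as well. For gemcitabine in PANC1 they were 442 with the replicate block and 1484 with library size alone, of 16909 genes tested. A changed count of kinesins is therefore not by itself a result about kinesins. With limma-trend on log2(FPKM + 1) there were 7 calls for gemcitabine and 0 for genistein in MiaPaCa2, 0 for co-treatment against gemcitabine and 5 against genistein there, 3 for co-treatment in PANC1 and 4 for the difference in gemcitabine response. By adjusted p alone, which drops the fold and level criteria, there were 24 for co-treatment in MiaPaCa2, 2 against gemcitabine and 20 against genistein, and 5 in PANC1 against genistein. With all 16 libraries in 1 model the counts were 0 and 6 for co-treatment against gemcitabine and genistein in MiaPaCa2, and in PANC1 1 for genistein, 12 for co-treatment, 1 against gemcitabine and 9 against genistein. Without the low-count filter the MiaPaCa2 count against gemcitabine was 0. DESeq2 gave 1 for genistein, 9 for co-treatment and 7 against genistein in PANC1. A fit of the 4 libraries compared, added after seeing the data, gave 1 for genistein and 2 for co-treatment in PANC1.

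The GC correction gave in PANC1 6 for gemcitabine, 3 for genistein, 16 for co-treatment, 3 against gemcitabine and 12 against genistein, and 12 for the difference in gemcitabine response. With the replicate block added these were 5, 3, 16, 1, 11 and 11. The calls over all genes under the GC correction alone are given with each comparison above. With library size alone the median of all genes in PANC1 was 0.14 with gemcitabine and 0.17 with co-treatment, against 0.03 and 0.01 with TMM. The transport medians there turned to 0.04 and 0.02.

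Replicate numbers shared by the groups did not mark pairs, since correlations of same-numbered deviations ran from -0.25 to 0.13 in MiaPaCa2 and from -0.51 to 0.26 in PANC1. The replicate block gave 0 calls for co-treatment against gemcitabine in MiaPaCa2, 15 for gemcitabine there and 2 in PANC1, and moved no other count of calls by over 1.5 times. With crossed numbers, added after seeing the data, the block gave 14 calls for co-treatment in PANC1, 2 against gemcitabine there and 12 against genistein in MiaPaCa2.

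Leaving out 1 library at a time gave 4 to 16 calls for the difference in gemcitabine response (16 without PANC1 control replicate 2, 4 without either MiaPaCa2 control, either MiaPaCa2 gemcitabine library or PANC1 gemcitabine replicate 2) and 5 to 10 for that in co-treatment response (10 without PANC1 control replicate 2). In MiaPaCa2 it gave 2 to 5 for genistein (2 without either control or genistein replicate 1) and 0 to 2 for co-treatment against gemcitabine (2 without co-treatment replicate 1, 0 without its replicate 2 or either gemcitabine library). In PANC1 it gave 2 to 7 for gemcitabine (7 without control replicate 2), 4 to 12 for co-treatment (12 without control replicate 1) and 0 to 5 for co-treatment against genistein (5 without co-treatment replicate 1, 0 without either genistein library). With 2 replicates per group a group left with 1 library borrows its spread from the others, and low-level members such as KIF20B and KIF17 rest on few reads. Calls over all genes are not given for the fits that left out a library, so their kinesin counts have no background beside them.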
